A study of Xenopus laevis with 6 samples.

Results

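The genes described here handle ammonium and acid in Xenopus laevis embryos: the Rh glycoprotein genes rhbg, rhcg and rhag, and ca2, which encodes carbonic anhydrase 2. They were chosen by symbol, with the suffix .L or .S that marks the copy on each subgenome of this tetraploid frog. Of the 8 names sought, 7 had a row in the gene table of 42638 rows, and rhcg.S did not, so rhcg is described from its L copy alone. The list was drawn up with results of the comparison of the media known, in particular the higher count of rhbg.L, so the differences between the media are given below as a description. Calls from the fits over all genes are counted once, with their background, and are no evidence about these genes.

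RNA of whole wild-type embryos was sequenced after ribosomal RNA had been removed at stage 35, in 3 pools raised in 0.75X MMR and 3 pools raised in 0.1X MMR. Each pool held 10 embryos. MMR (Marc's Modified Ringer's) is a salt solution. All embryos were fertilized and first kept in 0.1X MMR at 14 °C, and those of the 0.75X MMR group were moved to the saltier medium at stage 9, so that both groups spent 7 days at the same temperature. No source says which numbered pools share parents, and a pool averages its embryos, so the spread given here is that between pools.

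Rh glycoproteins are membrane proteins that let ammonia or ammonium cross cells. In the mammalian kidney Rhbg lies on the blood side and Rhcg mainly on the urine side of acid-secreting epithelia, whereas RhAG belongs to the Rh complex of the red blood cell. Carbonic anhydrase 2 is a cytosolic enzyme that turns CO2 and water into bicarbonate and a proton, and it is abundant in mammalian red blood cells and in cells that secrete acid. Aquatic frog larvae excrete much of their nitrogen as ammonia, and their skin holds ionocytes, cells rich in proton pumps.

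The count totals ran between 5024957 and 7045215 per pool, and the median pool had 6008402 in 0.75X MMR, against 6187769 in 0.1X MMR. Levels are given as CPM, the count as a rate of the pool's total after TMM scaling. The detection floor of 3 counts was worth between 0.428 and 0.604 CPM across the pools, and it covers counting error only. All 7 genes passed the filter of a CPM over 0.6 in at least 3 pools, which left 28075 genes. The counts of the 7 genes were whole numbers in 42 of 42 values (within 1e-09), whereas 42.5% of all values above 0 in the table were not. RSEM, with which the counts were estimated, gives fractions where it divides reads between genes. Transcript lengths were not available for these genes, so levels are compared between media or pools and not between genes.

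Both copies of rhbg were higher in 0.75X MMR in every pool. On chromosome 8L, rhbg.L spans 123802540 to 123823929 in genome version 10.1, where 68, 65 and 90 counts were found in the pools of 0.75X MMR, against 54, 59 and 42 counts in those of 0.1X MMR. This came to 11.3, 11.5 and 14.7 CPM in 0.75X MMR and 7.71, 9.60 and 8.45 CPM in 0.1X MMR, so that 1.66 CPM lay between the lowest pool of 0.75X MMR and the highest of 0.1X MMR. The level averaged 12.5 ± 1.93 CPM in 0.75X MMR and 8.59 ± 0.952 CPM in 0.1X MMR (SD, n = 3 pools each). By edgeR this was a log2 fold change of 0.55, a 1.46-fold higher level. The standard error given beside each log2 fold change is that of the difference of mean log2 CPM over pools, and was 0.15 here.

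The S copy, rhbg.S, spans 97967999 to 97994338 on chromosome 8S. Its level was 31.8, 30.9 and 35.0 CPM in 0.75X MMR and 29.4, 25.9 and 26.2 CPM in 0.1X MMR. Here the pools of the media were set apart by 1.47 CPM, and the means were 32.6 ± 2.17 CPM in 0.75X MMR and 27.1 ± 1.96 CPM in 0.1X MMR (SD, n = 3 each). At 0.26 (standard error 0.08) the log2 fold change was a smaller value than that of the L copy. With the counts of both copies added up, the log2 fold change was 0.33.

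The pools of the media overlapped in rhcg.L, the gene of the Rh glycoprotein that in the mammalian kidney lies mainly on the urine side. It lies on chromosome 3L from 115369976 to 115405643. Its level was 16.2, 11.9 and 16.5 CPM in 0.75X MMR and 13.4, 15.3 and 11.3 CPM in 0.1X MMR. The means were 14.9 ± 2.60 CPM in 0.75X MMR and 13.3 ± 2.01 CPM in 0.1X MMR (SD, n = 3 each), with a log2 fold change of 0.15 (standard error 0.20).

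The red blood cell member of the family had few counts. On chromosome 5L, rhag.L spans 160498127 to 160534544 with 11, 36 and 37 counts in the pools of 0.75X MMR, against 35, 25 and 22 counts in those of 0.1X MMR. Its level was 1.82, 6.39 and 6.05 CPM in 0.75X MMR, against 5.0, 4.07 and 4.43 CPM in 0.1X MMR. Replicate 1 of 0.75X MMR was the lowest of all 6 pools and the other two pools of that medium were the highest, so the range in 0.75X MMR enclosed that in 0.1X MMR. For rhag.L the log2 fold change was 0.07 (standard error 0.58). It came to 0.46 without replicate 1, to -0.19 without replicate 2 and to -0.15 without replicate 3 of 0.75X MMR, and to -0.006 without replicate 2 of 0.1X MMR, so its sign turned when single pools were left out.

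The S copy, rhag.S, from 135631650 to 135667391 on chromosome 5S, stood near the floor, at 9, 3 and 4 counts in the pools of 0.75X MMR, against 8, 4 and 2 counts in those of 0.1X MMR. Replicate 1 had the most counts of rhag.S in either medium. At this depth a difference in rhag.S between the media was not detectable: its log2 fold change was 0.23 (standard error 0.57) with all pools, -0.35 without replicate 1 of 0.75X MMR, -0.02 without replicate 3 of 0.1X MMR and 0.72 without replicate 1 of 0.1X MMR.

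Both copies of ca2 had a lower mean in 0.75X MMR, and the pools of the media were apart in the S copy alone. On chromosome 6S, ca2.S spans 111094278 to 111118272. The pools of 0.75X MMR held 277, 266 and 257 of its counts, against 424, 380 and 416 in those of 0.1X MMR. Its level was 45.9, 47.2 and 42.1 CPM in 0.75X MMR and 60.5, 61.8 and 83.7 CPM in 0.1X MMR, with 13.3 CPM between the nearest pools. The mean was 45.0 ± 2.67 CPM in 0.75X MMR and 68.7 ± 13.0 CPM in 0.1X MMR (SD, n = 3 each), where replicate 3 of 0.1X MMR was the highest pool. The log2 fold change of ca2.S was -0.60 (standard error 0.16), and it was -0.44 without replicate 3 of 0.1X MMR.

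The L copy, ca2.L, from 134871553 to 134897062 on chromosome 6L, was at 68.4, 83.2 and 64.6 CPM in 0.75X MMR and at 91.1, 79.6 and 100.4 CPM in 0.1X MMR. Replicate 2 was the highest pool of ca2.L in 0.75X MMR and the lowest in 0.1X MMR, and it was in these pools that the ranges overlapped. The means were 72.1 ± 9.83 CPM in 0.75X MMR and 90.4 ± 10.5 CPM in 0.1X MMR (SD, n = 3 each), with a log2 fold change of -0.33 (standard error 0.15). The summed counts of ca2.L and ca2.S had a log2 fold change of -0.44.

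**Figure D1:**
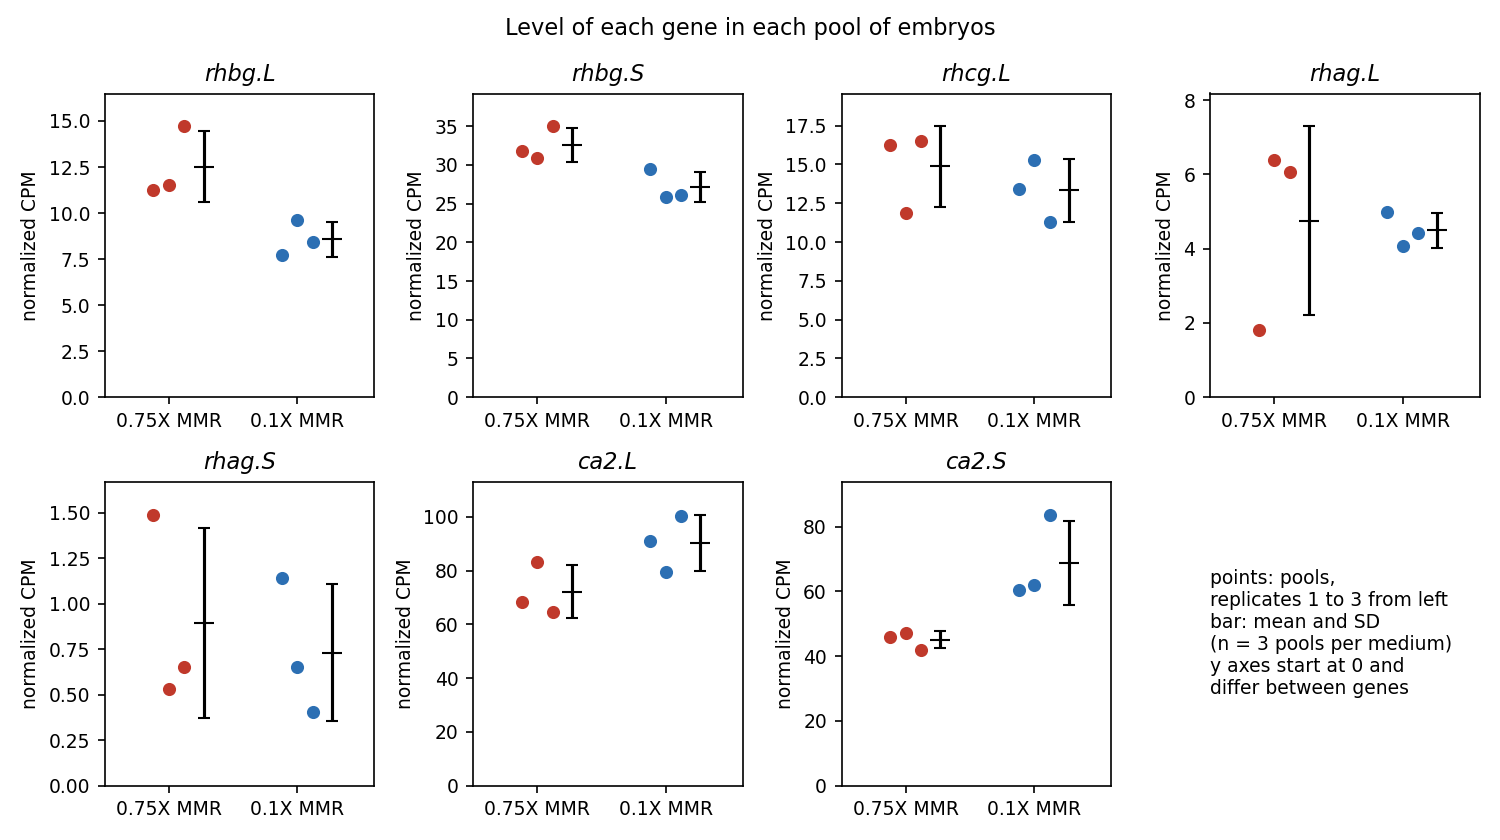
Level of each gene in normalized CPM (y axis, from 0, with its own scale per gene) in the pools of 0.75X MMR (red, left) and 0.1X MMR (blue, right), with the mean and SD of 3 pools. The pools of the media are apart in rhbg.L, rhbg.S and ca2.S, and replicate 1 of 0.75X MMR is the lowest pool in rhag.L with 1.82 CPM.

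The pools of the media did not overlap in 3 of the 7 genes, of which rhbg.L and rhbg.S were higher in 0.75X MMR and ca2.S was lower. Over all tested genes the share without overlap was 9.74%, with 4.77% higher in 0.75X MMR and 4.97% lower. The quasi-likelihood test of edgeR, adjusted by Benjamini-Hochberg over all tested genes, put 0 of the 7 genes under an FDR of 0.05, against 5 of 28075 genes, or 0.0178% (0.00712% higher in 0.75X MMR and 0.0107% lower). With an unadjusted p under 0.05 there were 4 of the 7 genes, against 4.39% of all tested genes. DESeq2 gave an adjusted p to 4 of the 7, all but rhbg.L, rhag.L and rhag.S, and called 1 of these, ca2.S, against 14 of the 13378 genes with an adjusted p, or 0.105%. By limma-voom 0 of the 7 were called, against 0.0178% of all tested genes, and with 2 surrogate variables 0, against 0.0570%. Without a filter on low counts edgeR called ca2.S alone of the 7, against 0.0954% of 35640 genes. These counts describe a list that was drawn up with this comparison known, and nothing is read from them. Because the pools are whole embryos, fewer cells of a type and less RNA per cell cannot be told apart in any of these values.

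The sign of the log2 fold change was kept in all 15 alternatives, those with a pool left out included, for each of rhbg.L, rhbg.S, ca2.L and ca2.S, and in all 14 for rhcg.L. For rhag.L it was kept in 8 of 15 and for rhag.S in 11 of 13. All alternatives reuse the same pools. In rhbg.L, rhbg.S and ca2.S, whose pools did not overlap between media, leaving a pool out could not turn the sign at the same scaling. With a single pool left out, the log2 fold change lay between 0.42 and 0.64 for rhbg.L, between 0.21 and 0.33 for rhbg.S, between -0.44 and -0.25 for ca2.L and between -0.69 and -0.44 for ca2.S.

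**Figure D2:**
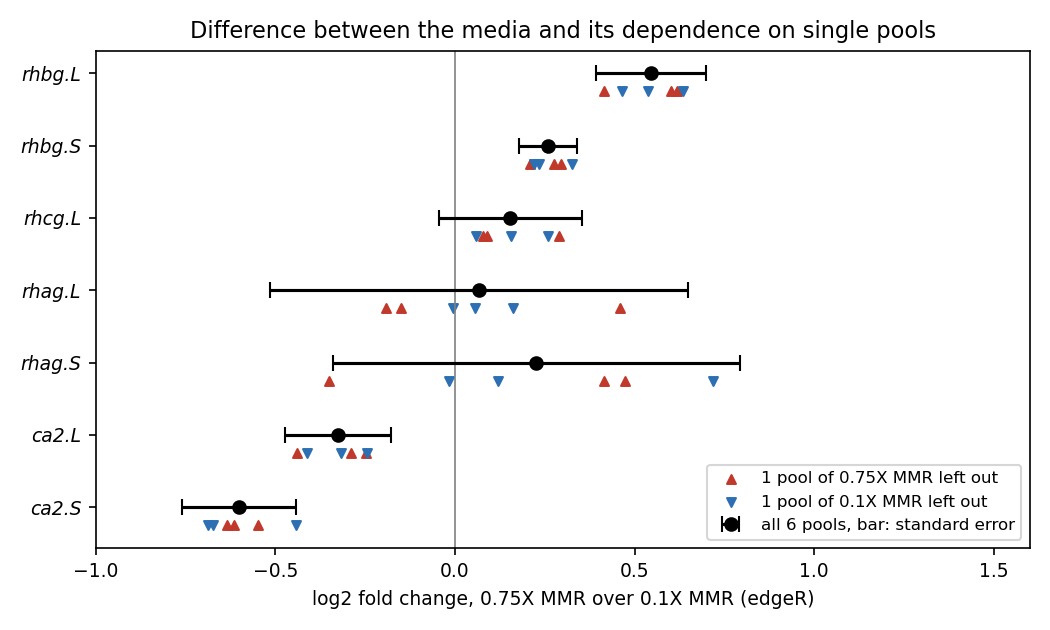
The log2 fold change of each gene, 0.75X MMR over 0.1X MMR, with the standard error over pools (black) and the value with each pool of 0.75X MMR (red) or 0.1X MMR (blue) left out. The points of rhbg.L and rhbg.S stay above 0 and those of ca2.L and ca2.S below it, whereas rhag.L runs from -0.19 to 0.46 and rhag.S from -0.35 to 0.72.

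The deposited log2 CPM with the authors' surrogate variable adjustment listed 6 of the 7 genes, all but rhag.S. The difference of the means, 0.75X MMR minus 0.1X MMR, was 0.53 for rhbg.L, 0.26 for rhbg.S, 0.15 for rhcg.L, -0.16 for rhag.L, -0.33 for ca2.L and -0.58 for ca2.S. Only rhag.L had another sign there than by edgeR, and limma-voom on the counts without that adjustment was also negative for it, at -0.13.

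The genes also differed in how far pools of the same medium spread. The biological coefficient of variation that edgeR estimates within media was 23.6% for rhag.L, higher than in 97.4% of 3629 genes with a like mean count (within 0.5 on the log2 scale), whose median was 11.8%. It was 10.2% for ca2.S, above 93.5% of 3271 like genes, and 9.91% for ca2.L, above 91.8% of 2268. At the other end stood rhbg.S with 6.78%, above 25.7% of 4562 like genes. The values for rhbg.L (9.60%), rhcg.L (10.4%) and rhag.S (24.3%) lay above 53.8%, 77.3% and 66.9% of their like genes. By this estimate, which takes the media together, only rhbg.S of the 7 genes spread less than most genes of its level. The value of rhbg.L lay close to the median of its like genes, which was 9.34%. For rhag.L the SD of CPM was 53.5% of the mean over pools of 0.75X MMR, against 10.4% over those of 0.1X MMR. Its lowest pool was replicate 1 of 0.75X MMR, with 11 counts. For ca2.S the same measure was 5.94%, against 19.0%, and replicate 3 of 0.1X MMR was its highest pool. How far the ranks of rhag.L and ca2.S rest on those single pools was not tested.

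The division of the counts between the copies was taken in the pairs with both rows. Its change between the media follows from the fold changes of the copies given above and is no separate measure. The S copy of rhbg took most of the counts. The L copy held 26.2% (95% Wilson interval 21.2% to 31.8%), 27.2% (21.9% to 33.2%) and 29.6% (24.8% to 35.0%) of the rhbg counts in the pools of 0.75X MMR, and 20.8% (16.3% to 26.1%), 27.1% (21.6% to 33.3%) and 24.4% (18.6% to 31.4%) in those of 0.1X MMR. Its mean share was 27.7% ± 1.77 in 0.75X MMR and 24.1% ± 3.16 in 0.1X MMR (SD, n = 3 each), and the ranges overlapped. The intervals cover counting error only, and the shares are of counts, not divided by length.

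In ca2 the larger part was on the L copy, with 59.9% (56.2% to 63.4%), 63.8% (60.3% to 67.2%) and 60.6% (56.8% to 64.3%) in 0.75X MMR and 60.1% (57.1% to 63.0%), 56.3% (53.0% to 59.5%) and 54.5% (51.3% to 57.7%) in 0.1X MMR. The mean was 61.4% ± 2.10 in 0.75X MMR and 57.0% ± 2.83 in 0.1X MMR, and replicate 1 of 0.1X MMR lay within the range of the other medium. The L copy of rhag held 55.0% (34.2% to 74.2%), 92.3% (79.7% to 97.3%) and 90.2% (77.5% to 96.1%) of counts in 0.75X MMR and 81.4% (67.4% to 90.3%), 86.2% (69.4% to 94.5%) and 91.7% (74.2% to 97.7%) in 0.1X MMR. The low share in replicate 1 of 0.75X MMR rests on 20 counts.

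Over 7213 pairs of the table with a summed mean count of at least 10, the median share of the L copy was 56.0%, with quartiles of 43.6% and 69.3%. Over all pools ca2 stood at 59.0%, between the quartiles, rhbg at 26.0%, below them, and rhag at 84.7%, above them. Taken as 0.75X MMR minus 0.1X MMR, the log2 ratio of L to S counts differed by 0.27 in rhbg (standard error 0.16), by 0.27 in ca2 (0.12) and by -0.34 in rhag (1.04). The size of the change was above that of 75.0% of pairs for rhbg, 74.4% for ca2 and 81.6% for rhag. This ranking did not match pairs by count, and rhag had 20 to 43 counts per pool. Its share is therefore not comparable with those of rhbg and ca2. In each of rhbg, ca2 and rhag the pools of the media overlapped in the ratio.

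**Figure D3:**
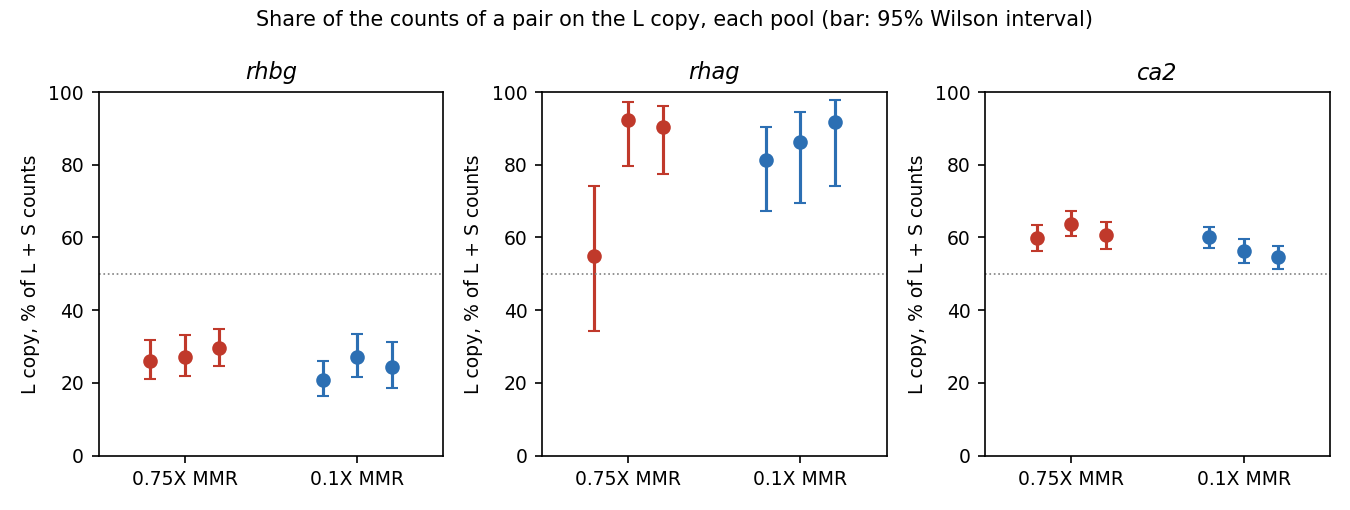
Share of the counts of rhbg, rhag and ca2 on the L copy (y axis, percent of L plus S counts) in each pool of 0.75X MMR (red, left) and 0.1X MMR (blue, right), with 95% Wilson intervals that cover counting error only. The L copy lies below 50% in every pool for rhbg and above 50% in every pool for rhag and ca2, and the shares of the media overlap in all of them.

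Other members of the Rh family were rhagl.L and rhd.S, a gene of the red cell antigen group. The level of rhagl.L was 2.75 ± 0.238 CPM in 0.75X MMR and 2.75 ± 0.417 CPM in 0.1X MMR (SD, n = 3 each), with a log2 fold change of 0.02 (standard error 0.14). That of rhd.S was 2.00 ± 0.988 CPM in 0.75X MMR and 1.72 ± 0.884 CPM in 0.1X MMR, with a log2 fold change of 0.17 (standard error 0.67). Neither passed an FDR of 0.05.

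The carbonic anhydrase family beyond ca2 had 21 rows, of which 18 were tested. By edgeR 0 of the 18 had an FDR under 0.05 over all genes. An unadjusted p under 0.05 was found in 3, all with a negative log2 fold change, against 4.39% of all tested genes. Calls by limma-voom were 0, as were those by DESeq2 among the 2 genes to which it gave an adjusted p. The median log2 fold change was -0.08, against -0.001 over all tested genes. The pools of the media did not overlap in 22.2% of the 18, each of these being lower in 0.75X MMR, against 9.74% of all tested genes in either direction. Of the 3 with the highest mean CPM, ca5b.L, a mitochondrial form in mammals, gave -0.07 on the log2 scale (standard error 0.09) and ca14.L, a membrane-bound form in mammals, -0.004 (standard error 0.13).

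The other was LOC108703258, annotated as carbonic anhydrase 4, which in mammals is anchored on the outer face of the membrane. Its level was 9.61, 9.23 and 8.51 CPM in 0.75X MMR and 15.6, 14.3 and 19.1 CPM in 0.1X MMR, so the pools of the media did not overlap. Its log2 fold change was -0.83 with a standard error of 0.13 and an adjusted p of 0.133 by edgeR. It passed the FDR limit in edgeR without a filter on low counts, and in no other run of edgeR or limma-voom. DESeq2 gave an adjusted p to 2 of the 18 genes of this list, so the absence of a call by DESeq2 is no result for most of them. LOC108719319, named here after its values were seen, is a further locus annotated as carbonic anhydrase 2 and lies on the same chromosome as ca2.L, from 134759375 to 134781258, with 90294 bases between them. Its counts were 27.3, 14 and 15 in the pools of 0.75X MMR, against 29, 10 and 18.1 in those of 0.1X MMR, with a log2 fold change of 0.003 (standard error 0.49), so it held few of the counts annotated to this enzyme.

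The list for ammonia and urea metabolism gave 34 tested genes. It held enzymes that make, bind or split off ammonia, AMP deaminases among them, and also urea cycle enzymes, aminotransferases and amino acid carriers. Of the 34 genes 0 were called by edgeR, and 4 had an unadjusted p under 0.05, all with a negative log2 fold change, against 4.39% of all tested genes. By limma-voom 0 were called, and by DESeq2 0 of the 27 with an adjusted p. The list had a median log2 fold change of -0.05, and the pools of the media did not overlap in 17.6% of it, against 9.74% of all tested genes. The most abundant by CPM were glul.L and glul.S, which encode glutamine synthetase, the enzyme that binds ammonia to glutamate, and glud1.L, which encodes glutamate dehydrogenase. For glul.L the log2 fold change was -0.18 with a standard error of 0.13, for glul.S -0.30 with 0.12 and for glud1.L -0.32 with 0.10, where edgeR gave an adjusted p of 0.755. The pools of the media did not overlap in glul.S and in glud1.L, the levels of glud1.L being 164.4, 189.6 and 150.7 CPM in 0.75X MMR against 207.7, 214.2 and 208.2 CPM in 0.1X MMR.

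Carriers of bicarbonate, protons and related ions of the slc4, slc9 and slc26 families gave 29 tested genes, of which 0 were called and 0 had an unadjusted p under 0.05 by edgeR. Calls by limma-voom were 0 as well, and by DESeq2 0 of the 17 with an adjusted p. Their median log2 fold change was -0.04, and the pools of the media did not overlap in 6.90% of them, against 9.74% of all tested genes. Both slc4a7.L and slc4a4.L encode sodium bicarbonate cotransporters, with a log2 fold change of -0.11 (standard error 0.04) for slc4a7.L, in which the pools of the media did not overlap, and 0.16 (0.14) for slc4a4.L. That of slc4a11.L was 0.003 (0.06).

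Markers of ionocytes had a lower summed level in 0.75X MMR. Of 17 tested genes 0 were called by edgeR, and 5 had an unadjusted p under 0.05, all with a negative log2 fold change, against 4.39% of all tested genes. Calls by limma-voom were 0, and DESeq2 called 0 of the 10 with an adjusted p. Their summed level was 375.9, 366.6 and 325.6 CPM in 0.75X MMR and 412.3, 387.4 and 443.5 CPM in 0.1X MMR, so that the sums did not overlap, and the median log2 fold change was -0.23, with 14 of the 17 below 0. The pools of the media did not overlap in 35.3% of them, against 9.74% of all tested genes. This list, like the other lists here, was drawn up with earlier results of these data known. It counts the copies of a gene and the subunits of the proton pump singly, so these shares are a description. The log2 value was -0.03 for tfcp2l1.L, which encodes a transcription factor of these cells (standard error 0.09), -0.06 for slc4a1.S, an anion exchanger that red cells also carry (0.12), and -0.41 for atp6v0a4.L, a proton pump subunit (0.11, with an adjusted p of 0.566 by edgeR). The S copy of the transcription factor gene, tfcp2l1.S, named here after its values were seen, was at 22.5, 27.8 and 21.4 CPM in 0.75X MMR and 36.2, 35.3 and 34.5 CPM in 0.1X MMR. Its log2 fold change was -0.57 (standard error 0.12), with an adjusted p of 0.178 by edgeR. It passed the FDR limit only in edgeR without a filter on low counts. The levels of rhbg in the same pools were higher in 0.75X MMR where the sum of these markers was lower, and those of ca2.S were lower along with it. The mean of ca2.L was lower too, but its pools overlapped between the media. The part of the ionocyte markers in the values of rhbg and ca2 was not tested. The markers pvalb.L and pvalb.S were at or near 0 counts, with a mean of 0 for pvalb.L and 0.167 for pvalb.S.

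Red blood cell markers stood the other way, with a median log2 fold change of 0.24 over 18 tested genes, 16 of them above 0. In 22.2% of these markers the pools of the media did not overlap, against 9.74% of all tested genes. By edgeR 0 were called, and 2 had an unadjusted p under 0.05, both positive, against 4.39% of all tested genes. Calls by limma-voom were 0, and DESeq2 called 0 of the 8 with an adjusted p. The summed level was 723.4, 738.4 and 665.2 CPM in 0.75X MMR and 731.5, 683.2 and 448.7 CPM in 0.1X MMR, where replicate 3 of 0.1X MMR was far below the other pools. The other sums of 0.1X MMR lay within the range of 0.75X MMR. A higher sum in 0.75X MMR therefore rests on replicate 3 of 0.1X MMR, and how far the median rests on this pool was not tested. The same pool had the highest ca2.L and ca2.S and a rhag.L of 4.43 CPM, near the middle of all pools. Replicate 1 of 0.75X MMR, the lowest in rhag.L, was the third highest in the summed red cell markers. Of the 3 with the highest mean CPM, all globins, hba3.L gave 0.26 on the log2 scale (standard error 0.23), hba4.S 0.22 (0.24) and hbd.S 0.05 (0.29), and in hba3.L the pools of the media did not overlap. In each of them replicate 3 of 0.1X MMR was the lowest pool. The other pools of 0.1X MMR lay below those of 0.75X MMR in hba3.L, within their range in hba4.S and above them in hbd.S. What these markers share with rhag or ca2 was not tested.

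Pronephros markers, which stand for the larval kidney, had a median log2 fold change of -0.01 over 14 tested genes, with 0 called and 0 at an unadjusted p under 0.05 by edgeR, 0 called by limma-voom, and 0 of the 4 with an adjusted p called by DESeq2. Their summed level was 164.1, 178.4 and 151.4 CPM in 0.75X MMR and 167.5, 168.0 and 162.6 CPM in 0.1X MMR. Fold changes on the log2 scale were -0.06 for slc12a1.L, the salt carrier of the diluting segment (standard error 0.05), 0.04 for lhx1.S (0.09) and 0.14 for pax2.L (0.17).

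**Figure D4:**
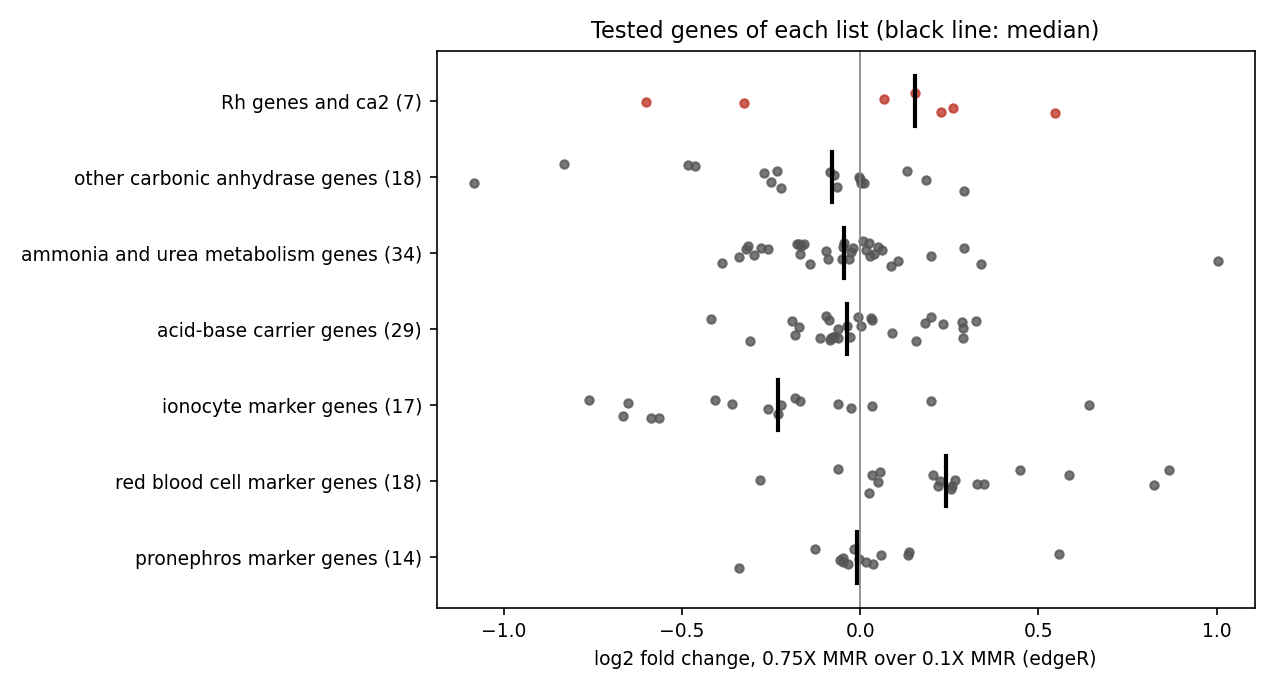
The log2 fold change, 0.75X MMR over 0.1X MMR, of the 7 Rh and ca2 genes (red) and of each tested gene of the lists (grey), with the median of each list as a black line and the number of genes in brackets. The medians lie between -0.23 for ionocyte markers and 0.24 for red blood cell markers, and the 7 genes reach from -0.60 to 0.55.

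The genes whose pattern over the 6 pools was nearest to that of these genes were found by the root mean square difference of the centred log2 CPM among 16534 genes with a mean count of at least 50, as a description. This was done for the 5 genes that had such a count themselves. Nearest to rhbg.L was LOC108715697, annotated as a DENN domain protein, at 0.08, followed by nuggc.S at 0.09 and ticrr.S at 0.11. For rhbg.S they were LOC447781 at 0.03, traf6.L at 0.04 and LOC108709739 at 0.04. For rhcg.L they were prpf31.L at 0.05, wdr91.L at 0.06 and otof.S at 0.06.

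For ca2.L the nearest were ckb.S, a creatine kinase gene, at 0.04, LOC108712630 at 0.05 and LOC121394321 at 0.06. For ca2.S they were ccn1.S at 0.09, sgk1.L, the gene of a kinase that acts on sodium transport in mammals, at 0.11 and adamts2.S at 0.12. The copies of a pair were not among each other's nearest 3 genes, and the sets of nearest genes of the 5 genes examined had no gene in common. Sets of 3 out of 16534 genes seldom share a gene, so this does not show that the patterns differ. The distances were not scaled to a gene's own spread over the pools, which ran from 0.15 for rhbg.S to 0.34 for ca2.S. They are therefore not comparable between the 5 genes.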

How the data were processed

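Reads were cleaned with fastp and mapped with STAR to genome version 10.1 by the authors, who then estimated gene counts in RSEM. The deposited values are expected counts per gene, not normalized, from single-end reads of 75 nucleotides. A second deposited table holds log2 CPM after TMM, voom and the authors' adjustment for surrogate variables. Whether counting used strand is not given in the sources used here. There were 0 columns without a sample.

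Counts were rounded, filtered at a CPM over 0.6 in at least 3 samples and scaled by TMM. The test was the quasi-likelihood test of edgeR 4.0.16 with the medium as the only term, p-values adjusted by Benjamini-Hochberg across the tested genes and an FDR limit of 0.05. The log2 fold change is that of the edgeR fit, whereas the standard error beside it is that of the difference of mean log2 CPM over pools. These measures can differ where pools spread widely, as in rhag.L. Alternatives used DESeq2 1.42.0, limma 3.58.1 with voom, sva 3.50.0 with 2 surrogate variables, other filters and scaling, a replicate block and each sample left out (R 4.3.3). The scripts were tested on simulated data.

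The genes and lists were chosen with earlier results of these data known. From each list, genes called are named, or otherwise the 3 with the highest mean CPM. A test of L against S levels was planned per transcript length and was not run, because no lengths were given, and sequences were not used here. Coordinates and gene lists rest on the RefSeq table of the same genome version and on product names in the deposited table.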

Additional observations from a re-analysis of the deposited data

How the results depend on the processing

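The number of genes called between the media was 5 by edgeR, 14 by DESeq2, 16 by limma-voom with 2 surrogate variables, 34 without a filter on low counts and 2 with the replicate block. It lay between 1 and 10 with a sample left out: 2 without replicate 1, 10 without replicate 2 and 3 without replicate 3 of 0.75X MMR, and 1 without replicate 1 of 0.1X MMR. Without the filter, 1 ionocyte marker (tfcp2l1.S) and 1 further carbonic anhydrase (LOC108703258) were called, and ca2.S was called there and by DESeq2. The other list counts were 0 under each alternative run, where DESeq2 gave an adjusted p to part of each list only. The log2 fold change of rhbg.L moved to 0.33 with L and S counts added up, and every other value of the 7 genes moved by less than the SD between pools. With 3 pools per medium, leaving a pool out can hardly shift a value by that SD, so those runs could not show such a move. In rhag.L and rhag.S the sign turned within that SD. The cause of these moves was not tested, except that the sum includes the copy with the smaller change. Same-numbered pools did not deviate together (correlations across 16535 genes of -0.05, -0.03 and -0.14 for numbers 1 to 3). No pool correlated best with the pool of its own number. With so few pools such small correlations cannot show whether same-numbered pools share parents or a batch. The replicate block moved no sign except that of rhag.L (-0.003). Low counts limit rhag.L and rhag.S, with 2 to 37 counts per pool.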
